A study of Homo sapiens with 12 samples.

Results

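The long genes raised by serum were 92 protein-coding genes of at least 50 kb whose RNA level was at least 1.5-fold higher after 30 min of serum in DMSO-treated cells. They were chosen by the length column of the count table, a mean of at least 50 counts over the 12 libraries and the ratio of mean CPM in DMSO-S30 to that in DMSO-S0. CPM are counts scaled to a common total over the gene rows, with the spike-in rows left out. Of 19901 genes in the table, 4658 met the length and count minimums, and 92 of these also met the ratio. ATF3 met all 3 criteria and was left out with the KLF, DUSP and ZNF symbols, of which none met them. The counts cover whole gene spans, introns included, so unspliced RNA adds to each value.

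The libraries came from HCT116 cells, a human colorectal carcinoma line, of the single clone D5, in which KAP1 carries a degradation tag. KAP1 is the protein product of TRIM28, and the ligand dTAG directs the tagged protein to the proteasome. All cells were without serum for 48 h, with DMSO or dTAG over the last 8 h. DMSO-S0 and dTAG-S0 then received no serum, DMSO-S30 and dTAG-S30 received serum for 30 min, and each group had 3 libraries. RNA was depleted of ribosomal RNA, and ERCC spike-in RNA was added. All 4 groups carry the tag on KAP1, so untagged cells were not compared here.

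Serum and its growth factors switch on immediate early genes without new protein synthesis, through factors that are already present in the cell. Serum response factor (SRF) binds the CArG box and answers to RAS-ERK signalling and to actin dynamics, while CREB binds the cAMP response element (CRE) and AP-1 its own TGACTCA motif. The best known immediate early genes are short. In a long gene, RNA polymerase II needs more time to reach the end, and reads from introns of the unfinished transcript are counted here as soon as they are made.

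The promoters of 7 of the genes are shown as examples, chosen after the matches were seen from the genes whose RefSeq window held a CArG box or a CRE. Each sequence runs from 130 bases before to 20 bases after a RefSeq start (GRCh38.p14), 5′ to 3′ on the strand of the gene, and capitals mark matches to the CArG box, the CRE (TGACGTCA) or AP-1 (TGACTCA) on either strand.
EGR2 (chr10:62816347-62816496, - strand): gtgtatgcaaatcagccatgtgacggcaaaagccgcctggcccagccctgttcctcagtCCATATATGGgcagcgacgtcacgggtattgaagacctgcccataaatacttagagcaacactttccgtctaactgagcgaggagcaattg
FHL2, upstream start (chr2:105438494-105438643, - strand): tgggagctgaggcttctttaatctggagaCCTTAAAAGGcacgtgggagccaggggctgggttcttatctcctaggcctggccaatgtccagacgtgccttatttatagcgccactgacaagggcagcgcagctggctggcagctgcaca
FHL2, downstream start (chr2:105399032-105399181, - strand): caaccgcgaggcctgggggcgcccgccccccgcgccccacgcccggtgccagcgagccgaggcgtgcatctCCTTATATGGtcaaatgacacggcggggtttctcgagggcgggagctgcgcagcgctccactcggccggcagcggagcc
RND3 (chr2:150487676-150487825, - strand): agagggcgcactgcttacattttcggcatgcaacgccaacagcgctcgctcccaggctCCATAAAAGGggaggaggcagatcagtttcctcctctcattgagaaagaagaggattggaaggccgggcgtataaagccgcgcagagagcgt
LDB3 (chr10:86668381-86668530, + strand): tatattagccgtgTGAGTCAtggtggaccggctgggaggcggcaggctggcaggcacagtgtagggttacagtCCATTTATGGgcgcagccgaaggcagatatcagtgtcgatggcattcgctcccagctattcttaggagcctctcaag
MYO1E (chr15:59372852-59373001, - strand): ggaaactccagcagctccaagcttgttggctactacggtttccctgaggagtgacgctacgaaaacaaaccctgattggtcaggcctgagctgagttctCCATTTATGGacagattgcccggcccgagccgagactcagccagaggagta
CREM, internal start (chr10:35195772-35195921, + strand): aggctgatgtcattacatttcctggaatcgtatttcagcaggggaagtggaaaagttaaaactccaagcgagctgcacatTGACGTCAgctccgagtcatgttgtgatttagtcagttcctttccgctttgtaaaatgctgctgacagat
IFRD1 (chr7:112450330-112450479, + strand): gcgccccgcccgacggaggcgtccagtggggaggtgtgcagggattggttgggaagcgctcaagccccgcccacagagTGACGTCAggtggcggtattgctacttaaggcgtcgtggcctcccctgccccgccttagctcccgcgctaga
The CArG box ended 62 bases before the EGR2 start and 63 bases before the RND3 start. FHL2 held a CArG box at both of its printed starts, which lay 39.5 kb apart, ending 92 and 50 bases before them. In LDB3 the box ended 48 bases before the start, with an AP-1 match further upstream, and in MYO1E it ended 22 bases before it. The CREM and IFRD1 sequences held a CRE, ending 43 and 45 bases before starts that lay 69.1 kb and 27.5 kb inside the gene span of the table. The printed EGR2 and RND3 starts also lay inside their spans, by 104 kb and 51.3 kb.

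RefSeq windows of 300 bases, from 250 before to 50 after a start, were matched by symbol for 81 of the 92 genes. At least 1 window held a CArG box in 10 of these 81 genes (12.3%), against 1.72% of 15276 genes of the table with a window. The 10 genes were CAPN13, EGR2, FHL2, GNAL, LDB3, MIDEAS, MYO1E, RCAN1, RND3 and RSU1. A CRE was found in 8 genes (9.88%, against 3.07%), namely BACH2, CREM, CYSTM1, FSTL4, IFRD1, LMCD1, PMEPA1 and RCAN1. AP-1 was found in 8.64% of the genes against 5.32%. The TEAD motif CATTCC was found in 18.5% against 15.6% and the EGR motif GCGTGGGCG in 1.23% against 1.39%. Among 278 genes under 50 kb that met the same ratio and count minimums, 221 had a window, and the shares were 5.88% for the CArG box and 12.7% for the CRE. Both strands were searched, genes with several starts had more windows to match, and a match describes the letters and not a bound site. These shares were not tested.

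TRIM28 transcript was at 88.0 to 117 CPM over the 12 libraries and did not differ between dTAG and DMSO in the test averaged over serum levels (log2 change -0.05, adjusted p = 0.637, edgeR). Loss of the protein is not measured by this transcript. Total counts were 20537682 to 26278707 per library, with 7.97% to 9.37% on ERCC transcripts and 7.18% to 9.04% of gene counts on mitochondrial genes. The 6 epithelial markers were each at 74.7 to 593 CPM. The 4 leukocyte markers summed to 4.23 to 6.55 CPM and the 3 endothelial markers to 1.38 to 3.05 CPM. Of the 5 fibroblast markers, 4 stayed at or under 0.629 CPM in each library. COL1A1 moved with serum, from 12.01 to 15.9 CPM in the 6 libraries without it to 64.2 to 84.0 CPM in the 6 with it, and what part it has in the results below was not tested. Replicates differed by 2.96 to 9.44 times the chi-square per degree of freedom that sampling gives, so no pair of libraries agreed within sampling noise. The labels do not tie replicates to separate cultures, so p-values measure the spread between these libraries.

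The first comparison asked whether the genes chosen in DMSO-treated cells also rose with serum in dTAG-treated cells. All 92 were called higher by serum in dTAG-treated cells, where 9.04% of the 13093 genes tested were called higher (edgeR quasi-likelihood test, Benjamini-Hochberg over all genes tested). Among genes of at least 50 kb with at least 50 counts the share was 8.31%. In each of the 92 the 3 dTAG-S30 libraries lay above the 3 dTAG-S0 libraries, which held for 9.99% of all genes tested. The median log2 serum change was 0.94 in dTAG-treated cells, from 0.35 in NGLY1 to 4.49 in EGR2, beside a median of -0.06 over all genes tested. The dTAG libraries took no part in the ratio that chose the genes but entered the count minimum, which all 92 also met over the 6 DMSO libraries alone. Over the 6 serum-free libraries 83 met it. The other 9 (PLPP3, LDB3, KRT86, CAPN13, LCP1, CREB5, FSTL4, PEBP4 and UTS2B) passed only through the libraries with serum, where they had to be higher. Of the 83, 83 were called higher in dTAG-treated cells, with a median log2 change of 0.91. In the DMSO-treated cells that chose them, the median log2 change was 1.06, from 0.64 to 5.02, and 92 of 92 were called higher where 9.22% of all genes were; these values are a description. In 75 genes the change was smaller in dTAG than in DMSO-treated cells and in 17 larger, and since the DMSO libraries chose the genes nothing is read from this split. The genes of at least 2-fold change numbered 48 in DMSO and 42 in dTAG-treated cells.

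**Figure D1:**
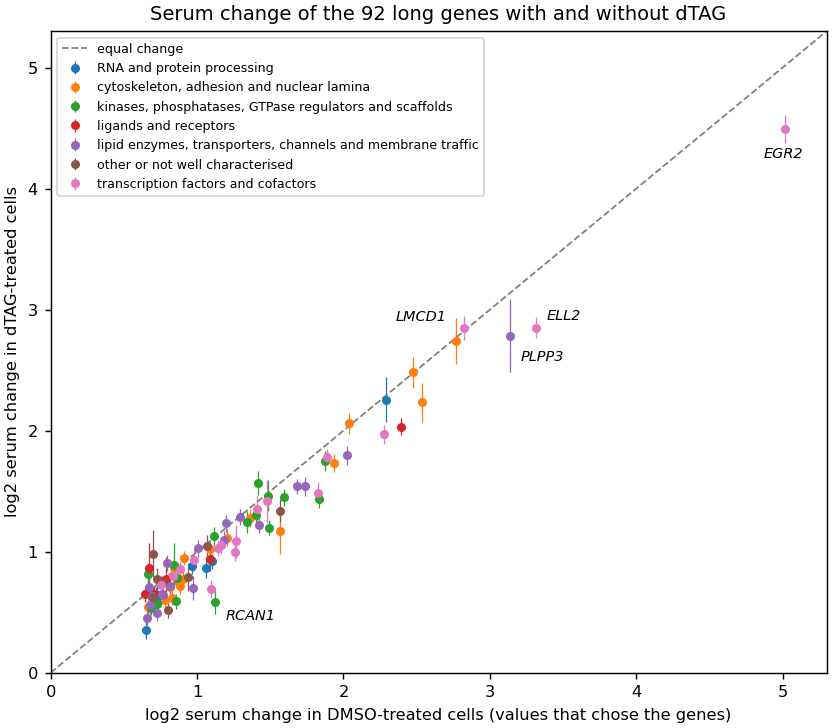
Each point is 1 of the 92 long genes, with its fitted log2 serum change in DMSO-treated cells, which chose the genes, on the x axis, and that in dTAG-treated cells on the y axis (bars, SE). Colours give the role and the dashed line equal change. All 92 points lie above 0 on the y axis, EGR2 is at 4.49 and 75 points lie under the line.

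Of the genes of at least 50 kb, GRK5 and NGLY1 stood just inside the ratio, at 1.5005-fold and 1.504-fold in DMSO-treated cells, and BCAR3 and EHD4 just outside, at 1.4952-fold and 1.4948-fold. In dTAG-treated cells the CPM ratio of these 4 was 1.72, 1.24, 1.65 and 1.497. GRK5 encodes a kinase of G protein-coupled receptors and NGLY1 the cytosolic N-glycanase. The ratio in dTAG-treated cells was at least 1.5-fold for 76 of the 92.

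Transcription factors and cofactors made up 17 of the 92 and had a median log2 change of 1.27 in DMSO and 1.08 in dTAG-treated cells. The largest rise was that of EGR2, a zinc finger immediate early factor (chr10:62811996-62919900, hg38, - strand). EGR2 was at 1.72, 2.67 and 2.27 CPM in the DMSO-S0 libraries and 74.1, 65.8 and 74.4 CPM in DMSO-S30. In dTAG-S0 it was at 2.50, 3.03 and 2.05 CPM and in dTAG-S30 at 51.8, 54.5 and 56.3 CPM. Serum and serum-free libraries lay far apart in both treatments, a 22.5-fold rise in dTAG-treated cells (log2 change 4.49 ± 0.12 SE, n = 3 against 3, adjusted p = 1.8e-21, edgeR). With serum, the 3 dTAG libraries were below the 3 DMSO libraries. Here and below, the DMSO libraries of each serum level are those that chose the genes. Where dTAG and DMSO libraries lie at 1 serum level is thus a description, from which nothing is read.

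ELL2, a subunit of the super elongation complex that speeds RNA polymerase II, lies at chr5:95885098-95962071 on the - strand. It was at 33.1, 34.6 and 37.7 CPM in DMSO-S0 and at 315, 339 and 375 CPM in DMSO-S30. It was at 35.6, 35.4 and 32.0 CPM in dTAG-S0 and at 275, 201 and 235 CPM in dTAG-S30. Without serum the treatments overlapped, and with serum every dTAG library was under every DMSO library, again as a description. The serum change in dTAG-treated cells was 7.21-fold (log2 2.85 ± 0.09 SE). LMCD1, a LIM domain corepressor of GATA factors, was at 8.68, 8.89 and 9.49 CPM in DMSO-S0 and 57.3, 58.2 and 69.2 CPM in DMSO-S30. In dTAG-S0 it was at 7.74, 9.18 and 6.83 CPM and in dTAG-S30 at 57.6, 49.1 and 58.9 CPM, a 7.19-fold rise, with the treatments overlapping at each serum level. TBX18, a T-box factor of heart and ureter development, rose 3.92-fold in dTAG-treated cells, from 21.0 to 23.5 CPM up to 74.2 to 94.96 CPM.

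Among the other factors, FHL2, a LIM protein that binds SRF and other factors, rose from 63.5 to 67.1 CPM to 195 to 235 CPM in dTAG-treated cells. CREM, a CRE-binding factor whose internal promoter encodes the repressor ICER, rose from 19.8 to 21.0 CPM to 50.5 to 59.7 CPM there. REL, an NF-kappaB subunit, rose from 24.1 to 25.9 CPM to 46.4 to 50.2 CPM. Each of these rises passed the test, with no overlap between serum and serum-free libraries. CREB5 and BACH2, both bZIP factors, are among the longest genes and are described with them.

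**Figure D2:**
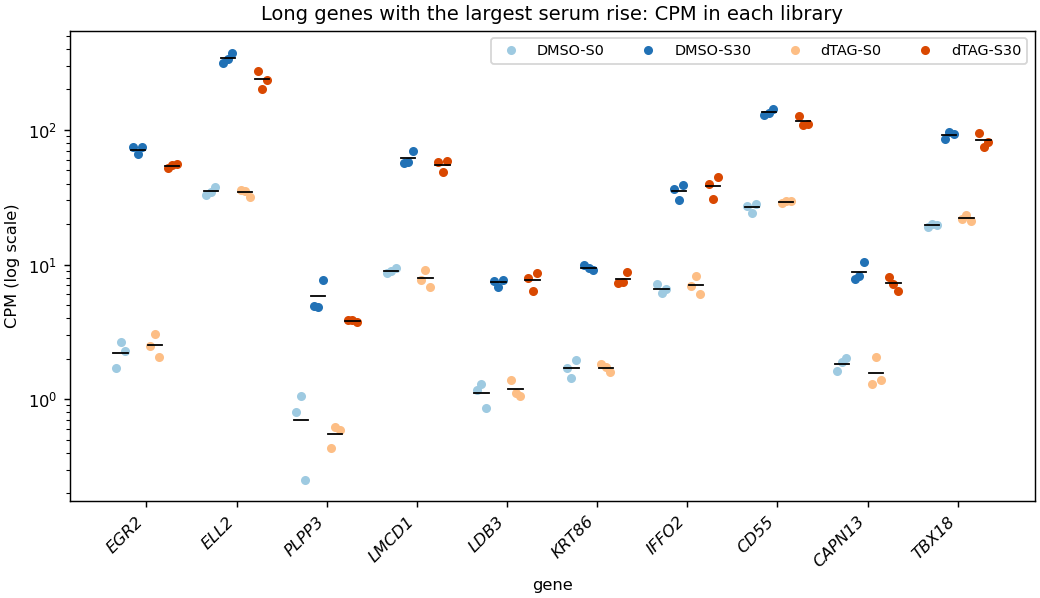
CPM (y axis, log scale) of the 10 long genes with the largest fitted serum change in DMSO-treated cells (x axis), with 1 point per library, 3 per group, and a line at the group mean. In each gene the serum libraries of both treatments lie above the serum-free ones. For ELL2 the dTAG-S30 points, 201 to 275 CPM, lie under the DMSO-S30 points, 315 to 375 CPM, which helped to choose the gene.

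The cytoskeleton, adhesion and nuclear lamina group held 18 genes, with a median log2 change of 1.001 in DMSO and 0.984 in dTAG-treated cells. VCL, which encodes vinculin and links integrins to actin, was at 190.4, 188 and 199 CPM in DMSO-S0 and 674, 713 and 742 CPM in DMSO-S30. In dTAG-S0 it was at 204, 205 and 224 CPM and in dTAG-S30 at 739, 591 and 709.5 CPM. Serum raised it 3.33-fold in dTAG-treated cells (log2 1.73 ± 0.07 SE), and with serum the treatments overlapped. MYH9, the heavy chain of non-muscle myosin IIA, rose from 373 to 431 CPM to 771 to 932 CPM in dTAG-treated cells. EZR encodes ezrin, which ties actin to the plasma membrane, and rose from 726 to 802 CPM to 1217 to 1334 CPM. EZR had the highest level per length of the 92, at 13.3 CPM per kb in DMSO-S0, where the median of the 92 was 0.418 and that of all 4658 long genes 0.557 CPM per kb.

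LDB3, a PDZ-LIM protein of the muscle Z-disc, was low without serum, at 0.858 to 1.29 CPM in DMSO-S0 and 1.05 to 1.39 CPM in dTAG-S0. With serum it was at 6.85 to 7.64 and 6.34 to 8.61 CPM, and it rose 6.67-fold in dTAG-treated cells. IFFO2, an intermediate filament family gene, rose 5.58-fold there, from 6.03 to 8.24 CPM up to 30.7 to 44.99 CPM. ITGB1, the beta1 integrin subunit, rose 1.53-fold in dTAG-treated cells, and FERMT2, which encodes the integrin activator kindlin-2, rose 2.03-fold. KRT86, a hair keratin, rose 4.70-fold in dTAG-treated cells from 1.59 to 1.83 CPM up to 7.36 to 8.75 CPM. Its reads may be shared with near-identical keratin genes, so its value is uncertain.

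Kinases, phosphatases, GTPase regulators and scaffolds numbered 17, with median log2 changes of 1.12 in DMSO and 1.13 in dTAG-treated cells. The group was drawn broadly and also holds EGLN1 and PMEPA1, which the name does not cover. MAP3K14, the kinase NIK of the non-canonical NF-kappaB pathway, rose from 44.9 to 47.7 CPM to 125 to 164 CPM in dTAG-treated cells. LATS2, a Hippo pathway kinase that restrains YAP, rose from 33.1 to 35.5 CPM to 79.0 to 95.4 CPM there. RND3 rose from 14.7 to 15.2 CPM to 32.7 to 36.6 CPM, and ARHGAP23 rose 2.18-fold. All 4 rises passed the test, with separate serum and serum-free libraries. TANK, an adaptor of TRAF proteins and the kinase TBK1, was among the most abundant, at 543 to 635 CPM in dTAG-S0 and 771 to 1008 CPM in dTAG-S30.

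Ligands and receptors were 6 genes, with median log2 changes of 0.75 and 0.82. CD55, the decay-accelerating factor that protects cells from complement, was at 27.4, 24.3 and 28.4 CPM in DMSO-S0 and 129, 133 and 144 CPM in DMSO-S30. In dTAG-S0 it was at 28.8, 29.6 and 29.5 CPM and in dTAG-S30 at 128, 109 and 111 CPM, a 4.09-fold rise. Lipid enzymes, transporters, channels and membrane traffic genes were 19, with medians of 0.97 and 0.91. PLPP3, a lipid phosphate phosphatase that acts on lysophosphatidic acid, was at 0.804, 1.06 and 0.252 CPM in DMSO-S0 and 4.90, 4.86 and 7.64 CPM in DMSO-S30. It was at 0.432, 0.624 and 0.587 CPM in dTAG-S0 and 3.88, 3.85 and 3.77 CPM in dTAG-S30. The rise was 6.88-fold in dTAG-treated cells (log2 2.78 ± 0.30 SE), on few reads, and PLPP3 is among the genes that met the count minimum only through the libraries with serum.

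VMP1, a membrane protein of autophagosome formation, was at 473, 481 and 454 CPM in DMSO-S0 and 1429, 1465 and 1454 CPM in DMSO-S30. In dTAG-S0 it was at 433, 468 and 431 CPM and in dTAG-S30 at 1318, 1236 and 1198 CPM, a 2.91-fold rise. The serum and serum-free libraries were far apart in both treatments. The smallest rises in dTAG-treated cells were those of NGLY1 (1.28-fold), PANX1 (1.37-fold), a membrane channel that releases ATP, and SGMS2 (1.40-fold), a sphingomyelin synthase. All 3 passed the test, NGLY1 with an adjusted p of 0.00112 (edgeR). RNA and protein processing genes were 7, with medians of 0.96 and 0.87, among them the calpain CAPN13, which rose 4.77-fold in dTAG-treated cells. The other 8 genes, of other roles or not well characterised, had medians of 0.78 in both.

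The longest of the 92 genes were DLGAP1 (959 kb), IQCJ-SCHIP1 (935 kb), CREB5 (527 kb), FSTL4 (416 kb) and BACH2 (370.4 kb), and the median length was 85.7 kb. DLGAP1 encodes a postsynaptic scaffold protein (chr18:3496032-4455335, - strand). It was at 8.09, 10.1 and 9.79 CPM in DMSO-S0 and 25.5, 23.4 and 24.2 CPM in DMSO-S30. In dTAG-S0 it was at 8.60, 9.62 and 9.14 CPM and in dTAG-S30 at 23.6, 26.9 and 27.4 CPM. The treatments overlapped at each serum level, and serum raised it 2.97-fold in dTAG-treated cells (log2 1.57 ± 0.10 SE). IQCJ-SCHIP1, a read-through gene that encodes an axonal scaffold protein, lies at chr3:158962235-159897366 on the + strand. It was at 16.7 to 19.2 CPM in dTAG-S0 and at 60.3 to 82.4 CPM in dTAG-S30, a 4.17-fold rise. The genes IQCJ and SCHIP1 lie within its span on the same strand and are at 0 counts in the table. All 773 genes nested in this way were at 0 counts, so the level of IQCJ and SCHIP1 is not known.

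CREB5 rose from 1.76 to 1.87 CPM to 4.22 to 5.22 CPM in dTAG-treated cells, and BACH2 from 24.2 to 30.8 CPM to 43.6 to 53.5 CPM. FSTL4, a follistatin-like secreted protein, was at 3.08, 2.41 and 2.10 CPM in dTAG-S0 and 4.24, 3.63 and 4.31 CPM in dTAG-S30. Its rise had an adjusted p of 0.00308 (edgeR) and was not called without dTAG-S30 replicate 3 (adjusted p = 0.0643). The 57 genes of 50 to 100 kb had a median log2 change of 0.99 in dTAG-treated cells, the 20 of 100 to 200 kb 0.99 and the 15 of at least 200 kb 0.87. Across the 92 genes, the length in the table and the serum change in dTAG-treated cells had a Spearman correlation of 0.01. With log10 length the Pearson correlation was 0.003. This length is that of the whole gene model, and no correlation was taken over the spans of single transcripts. The points are genes of the same libraries, and no p is given.

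**Figure D3:**
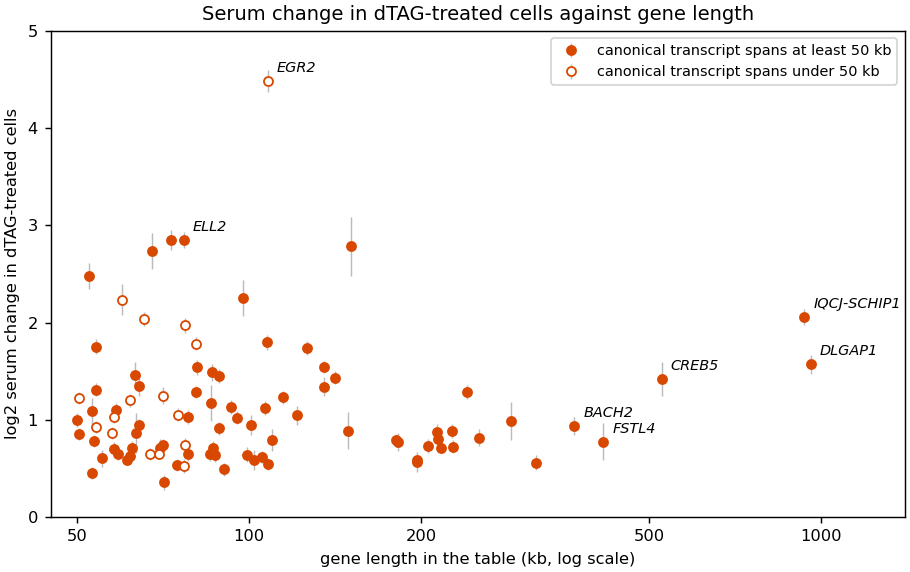
The x axis gives the length of each of the 92 genes in the table (kb, log scale) and the y axis the fitted log2 serum change in dTAG-treated cells (bars, SE). Open points are the 16 genes whose GENCODE v44 canonical transcript spans under 50 kb. DLGAP1, at 959 kb, is at 1.57 and EGR2, at 108 kb, at 4.49.

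The length in the table is that of the whole gene model. In GENCODE v44 the canonical transcript of 16 of the 92 genes spans under 50 kb, down to 4.37 kb in EGR2, where the model is 108 kb. Their median log2 change in dTAG-treated cells was 1.12, and that of the other 76 was 0.90, all 76 called higher. The canonical transcript started over 10 kb inside the table's span in 23 genes. Exons made up a median of 4.97% of the canonical transcript span over the 92, from 0.42% to 68.2%. Of the 92 genes, 23 overlapped another gene of the table, 9 of them on the same strand, and none of the 29 overlapping genes met the ratio and the count minimum. In the table, 773 of 773 genes nested in another on the same strand were at 0 counts. Such genes could not meet the count minimum, so their own serum change is not known. On the opposite strand, 131 of 664 nested genes were at 0 counts. Of these 664, 279 had a mean of at least 10 counts. Of 22 genes with a same-strand neighbour within 50 kb upstream, 1 (PEBP4) had a neighbour that met the ratio.

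Long genes made up the smaller share of the genes past the ratio. Of genes under 10 kb with at least 50 counts, 5.91% met the 1.5-fold ratio in the DMSO comparison, of those of 50 to 100 kb 2.62%, of those of 100 to 200 kb 1.31% and of those of at least 200 kb 1.63%. In dTAG-treated cells the share was 1.18% at 100 to 200 kb and 1.85% at 200 kb and over. The number that fell by the same ratio among genes of at least 50 kb was 81, beside 93 that rose with ATF3 included. In dTAG-treated cells, 85 genes of at least 50 kb rose and 54 fell. The 278 genes under 50 kb raised by the same ratio had median log2 changes of 1.19 in DMSO and 1.03 in dTAG-treated cells, where 274 were called higher. The difference between long and short genes was not tested.

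**Figure D4:**
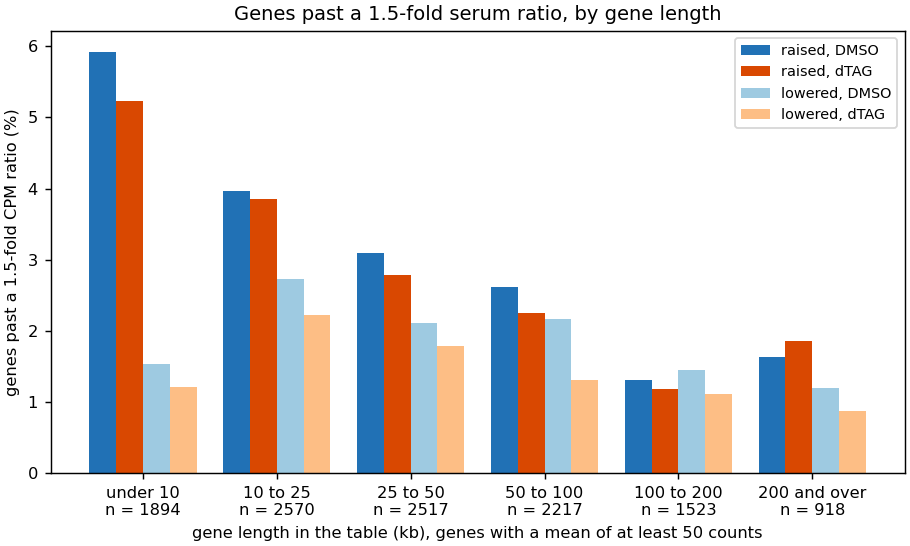
Bars give the percent of genes past a 1.5-fold ratio of mean CPM with serum to that without (y axis) in 6 length classes (x axis, kb, n under each), for genes with a mean of at least 50 counts. Blue bars are DMSO and orange bars dTAG-treated cells, dark for raised and light for lowered genes. The share raised in DMSO is 5.91% under 10 kb, 1.31% at 100 to 200 kb and 1.63% at 200 kb and over, so the lowest class is not the longest.

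The second comparison asked how KAP1 depletion moved these genes over both serum levels, as the mean of the dTAG groups against the mean of the DMSO groups. This mean weights the DMSO groups equally, where the choice of genes took their difference. Of the 92 genes, 14 were called, 4 higher and 10 lower with dTAG, a share of 15.2%. Of all genes tested 4.55% were called, 305 higher and 291 lower, and of long genes with at least 50 counts 5.05%. On simulated counts the fit called 1.62% of unchanged genes in this comparison, so a part of the 14 calls may be false. The median log2 change over the 92 was -0.03, beside -0.003 over all genes tested, and 36 values were above 0 and 56 below. The calls were 9 without DMSO-S0 replicate 1, 8 without DMSO-S30 replicate 3 and 4 when libraries were scaled to the ERCC total. Those 4 were NPC1, TSC22D3, GPAT3 and PMEPA1, so of the lower genes only PMEPA1 was still called with that scaling. The split of 4 higher and 10 lower thus depended on the scaling. Of the 278 raised genes under 50 kb, 25 were higher and 15 lower, a share of 14.4%, near the 15.2% of the 92. The share called is thus not particular to the long genes.

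The genes that were higher with dTAG were TSC22D3, GPAT3, NPC1 and TMC5. NPC1, which carries cholesterol out of lysosomes, was at 98.8, 91.99 and 96.7 CPM in DMSO-S0 and 115, 117 and 114 CPM in dTAG-S0. With serum it was at 219, 216 and 240.0 CPM in DMSO-S30 and 288, 245 and 291 CPM in dTAG-S30. As a description, the treatments did not overlap at either serum level. In the averaged test NPC1 was 20.5% higher with dTAG (log2 0.27 ± 0.04 SE, adjusted p = 0.00028, edgeR). TSC22D3, the glucocorticoid-induced leucine zipper, was at 5.57, 5.44 and 6.26 CPM in DMSO-S0 and 9.66, 7.04 and 7.67 CPM in dTAG-S0. With serum it was at 14.6, 14.5 and 15.9 CPM and at 20.5, 19.3 and 19.3 CPM. In the averaged test it was 35.7% higher (log2 0.44 ± 0.08 SE, adjusted p = 0.000845, edgeR). Of the 14 called genes, 3 had no overlap at either serum level, namely NPC1, TSC22D3 and, among the lower genes, CRISPLD2. The DMSO libraries chose the genes, so nothing is read from this. GPAT3, an acyltransferase of triglyceride synthesis, was 27.3% higher, at 12.9 to 15.9 CPM in dTAG-S0 against 9.54 to 10.3 CPM in DMSO-S0. With serum its ranges, 19.5 to 23.6 and 17.1 to 19.9 CPM, overlapped.

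**Figure D5:**
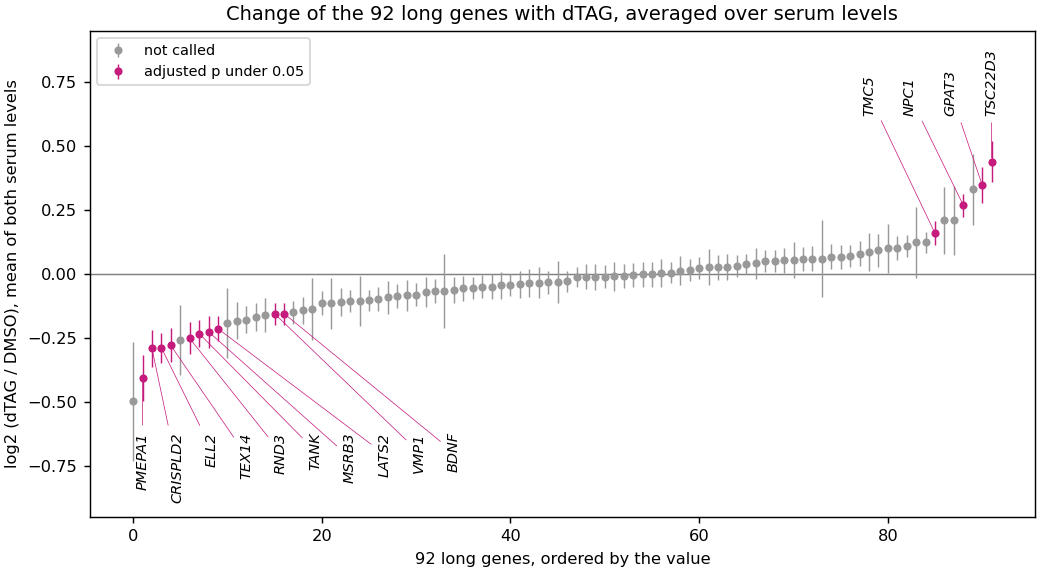
The 92 long genes are ordered along the x axis by their log2 change with dTAG averaged over both serum levels (y axis, bars, SE). Coloured and named points are the 14 with an adjusted p under 0.05, from PMEPA1 at -0.41 to TSC22D3 at 0.44. Of the 92 values, 56 lie below 0.

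The 10 genes that were lower were PMEPA1, CRISPLD2, ELL2, TEX14, RND3, TANK, MSRB3, LATS2, VMP1 and BDNF. PMEPA1, a membrane inhibitor of TGF-beta signalling, was at 9.70, 6.82 and 9.08 CPM in DMSO-S0 and 6.20, 7.00 and 6.16 CPM in dTAG-S0. With serum it was at 25.02, 20.6 and 22.9 CPM in DMSO-S30 and 18.9, 14.6 and 18.5 CPM in dTAG-S30. It fell by 24.5% (log2 -0.41 ± 0.09 SE, adjusted p = 0.00621, edgeR), with overlap without serum and none with it. ELL2, with the values given above, fell by 18.1% (log2 -0.29 ± 0.06 SE, adjusted p = 0.00298, edgeR). Its fitted change was -0.06 without and -0.52 with serum. The DMSO libraries of each serum level chose the genes, so nothing is read from this difference or from the overlaps. The other 8 fell by 10.2% to 18.3%, and those outside the rule for named genes were named after their values were seen. BDNF, the neurotrophin, was at 289 to 306 CPM in DMSO-S0 and 252 to 278 CPM in dTAG-S0, and the treatments overlapped with serum. Its call was lost in 7 of 20 alternative analyses.

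By role, the calls were 3 higher and 1 lower among lipid, transport and membrane genes. The kinases, GTPase regulators and scaffolds gave 4 lower, PMEPA1 included. Transcription factors and cofactors gave 1 higher and 1 lower, and ligands and receptors 2 lower. RNA and protein processing genes and the genes of other roles or not well characterised gave 1 lower each. The roles hold 6 to 19 genes each and 4.55% of all genes tested were called, so nothing is read from differences between roles. FHL2, in that test, had a log2 change of -0.15 and an adjusted p of 0.0596, and NGLY1 had -0.18 and 0.0505 (edgeR). At each serum level alone the DMSO libraries are those that chose the genes, so the medians of the 92, 0.03 without and -0.08 with serum, are given with no test.

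Related genes were taken from 7 gene lists, whichever their length, and tested for serum in dTAG-treated cells. There, 9.04% of all genes tested were called higher and 15.3% lower. The lists were chosen with earlier results of these data known, and their rises include the members. The counts are thus a description. Of 47 tested SRF and actin cytoskeleton genes, 28 rose and 0 fell, and 6 of the list are among the 92 (VCL, MYH9, FHL2, LIMA1, PDLIM5 and MYO1E). Of 32 cell adhesion and matrix receptor genes, 14 rose and 0 fell, with ITGB1 and FERMT2 among the 92. Of 28 YAP-TEAD targets and partners, 13 rose and 1 fell, and LATS2 is the member. The RAS-ERK signalling and feedback list had 7 rises and 5 falls of 36. Its member is MAP3K14, which stood on this list and not on the NF-kappaB list, although it encodes the NF-kappaB kinase NIK. The TGF-beta and BMP list had 13 rises and 2 falls of 30, with PMEPA1. NF-kappaB pathway genes had 9 and 3 of 32, with REL. Transcription factors and coregulators had 23 and 4 of 76, with CREM, CREB5, HIVEP2, BACH2, TLE3 and ELL2. The median log2 change was 0.32 in the SRF and actin list and 0.14 in the adhesion list, beside -0.06 over all genes tested.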

How the data were processed

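RNA-Seq libraries of 12 samples in 4 groups of 3 were analysed. The authors trimmed reads with Trim Galore 0.6.4, mapped them to hg38 with STAR and counted them with featureCounts (Subread 1.6.3) over whole protein-coding genes, introns included. The authors deposited raw counts, not normalized, for genes and ERCC spike-ins, beside positions and gene lengths. Counting introns adds unspliced RNA, which weighs more in long genes.

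Columns were assigned by name, and groups came from the labels. A gene was tested where 6 libraries or more held 10 or more counts (13093 genes, with 6808 left out), with upper-quartile scaling and 1 factor from 69 ERCC transcripts (RUVg), in edgeR 4.0.16 under R 4.3.3 (quasi-likelihood F-test, two-sided, Benjamini-Hochberg over all genes tested, threshold 0.05). An SE is the fitted change over the square root of F. CPM divide counts by the column sum of gene rows. On counts simulated for 13093 genes, the fit called 86% of genes changed 1.5-fold and 95% of those changed 2-fold for serum in dTAG-treated cells. For the averaged depletion comparison it called 93% and 100%. Of the genes left unchanged it called 0.0935% for serum but 1.62% for the averaged depletion comparison. In the data 4.55% of all genes tested were called in that comparison. The false share of its calls may thus exceed the threshold of 0.05, and its adjusted p-values may be too small. Lengths and overlaps used the table and GENCODE v44, and promoters RefSeq.

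The members, roles and lists were chosen with earlier results of these data known. Genes named were the 10 with the largest DMSO serum change, the 5 longest, the 5 most abundant, the 5 with the lowest adjusted p in the averaged depletion comparison, the 3 with the smallest dTAG serum change, the 2 inside and the 2 outside the ratio, up to 2 per list, and TRIM28. Other scalings, filters, tests, a replicate block and each library left out were tried. The depth of 20537682 to 26278707 counts sets the precision, which for genes near 1 CPM rests on few reads. A further gene list is not reported here.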

Additional observations from a re-analysis of the deposited data

How the results depend on the processing

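Each result was recomputed under TMM scaling with the ERCC factor, upper-quartile scaling without it, library sizes from the ERCC total or the column sums, a likelihood ratio test, DESeq2, no filter on low counts, a replicate block, only the 6 dTAG libraries (serum) and without each library. The genes called higher by serum in dTAG-treated cells numbered 91 to 92 with a library left out and 92 under the other alternatives. Their median was 0.89 to 0.999 with a library left out. With the replicate block the counts were 92 for serum and 16 for the averaged depletion comparison. Same-numbered libraries deviated from their group means with correlations of -0.153 to 0.0991. These gave no sign of pairing by number, but with 3 libraries per group they cannot exclude it.

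The 14 calls with dTAG averaged over serum levels became 4 with library sizes from the ERCC total, and 8 to 19 with a library left out. They were under 10 without DMSO-S0 replicate 1 (9) and without DMSO-S30 replicate 3 (8). The cause was not tested. The median of these changes was -0.04 to -0.00070 with a library left out. NPC1, TSC22D3, GPAT3 and PMEPA1 were called in all 20 alternatives, and ELL2, LATS2 and TANK in 19. The least stable calls were BDNF, lost in 7 alternatives, and VMP1, MSRB3 and TMC5, each lost in 6. ELL2 had an adjusted p of 0.0967 (edgeR) with library sizes from the ERCC total. Over all genes tested, 596 were called in that comparison, 258 with the ERCC total, 360 without DMSO-S30 replicate 2 and 911 without dTAG-S30 replicate 1. For serum in dTAG-treated cells 3191 genes were called, 37.1% of them higher, and 1646 with the ERCC total. The share higher was 61.8% under TMM, 62.5% with the ERCC total, 60.2% in DESeq2 and 23.5% with column sums. For dTAG it was 51.2%, and 65.5% with the ERCC total.

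The number of long genes raised was 167 from 25 kb, 35 from 100 kb and 47 at a 2-fold ratio, by construction of those limits, and 86 to 101 with a DMSO library left out. It was 113 with upper-quartile and 125 with TMM library sizes. Chosen after seeing the data, the 76 genes whose canonical transcript spans at least 50 kb gave 12 calls with dTAG, the 69 that overlap no other gene of the table gave 10, and the 83 with at least 50 counts over the serum-free libraries gave 14. With 3 libraries per group, genes of a few reads such as PLPP3 and FSTL4 have wide errors.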
